A study of Homo sapiens with 5 samples.

Results

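The 9 genes described here are the 3 members of the FAM53 family (FAM53A, FAM53B and FAM53C), the 5 DYRK protein kinases (DYRK1A, DYRK1B, DYRK2, DYRK3 and DYRK4) and DCAF7. They were taken by gene symbol from the 64252 genes of the count table, and all 9 had enough counts to be among the 15341 genes tested. RPE-1 is an immortalized human line derived from retinal pigment epithelium. Its cells were collected 48 hr after transfection of siRNA at 5 µM. The siCtrl group (n = 3) received a control siRNA and is labelled wild type, and the siFAM53C group (n = 2) received a pool of siRNAs against FAM53C and is labelled as a FAM53C knock-down; both groups were transfected with the same lipid reagent. The methods state that samples were collected in duplicate and do not say how the 3 controls relate to this, so all 3 were used. The line is a single immortalized line, the pool was compared with a single control siRNA, and nothing in the sources says that the libraries of a group came from separate cultures, so the p-values below measure the spread between these libraries only.

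FAM53 proteins have no known enzymatic activity, and FAM53C binds 14-3-3 proteins and the kinase DYRK1A. DYRK kinases phosphorylate their own activation loop on tyrosine while they are being made, and then phosphorylate other proteins on serine and threonine. Class I holds DYRK1A and DYRK1B, which are mostly nuclear and are known for slowing entry into the cell cycle through Cyclin D turnover and through LIN52, a subunit of the DREAM repressor complex. Class II holds DYRK2, DYRK3 and DYRK4, whose known members act on p53 and ubiquitin ligase scaffolds (DYRK2) and on the dissolution of stress granules and other condensates (DYRK3). DCAF7, also called WDR68, is a WD40-repeat scaffold that binds DYRK1A and DYRK1B and links them to other proteins. The question here was how the messenger RNAs of this set stood in control cells and whether they differed after FAM53C knock-down.

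The siRNA sequences are not given in the sources used here. Earlier results of these data linked the heptamer GACAAGA, in the RNA strand of 3′ UTRs, to lower levels in siFAM53C, so its presence in the members is shown first. The longest annotated 3′ UTR of each protein-coding gene was searched on the RNA strand only. It was found in 11.6% of the tested genes with such a UTR, and among the 9 genes it occurred in FAM53C, the targeted gene, and in DYRK1A, at 1 site each. The other 7 genes, DYRK2 included, had 0 sites. The site in FAM53C lies at base 179 of a 3′ UTR of 2770 bases, and that in DYRK1A at base 4741 of 13827 bases. Both are printed 5′ to 3′ as RNA-strand sequence written with T (build GRCh38), with the heptamer in capitals.
FAM53C, chr5:138347128-138347154, plus strand: gactggccggGACAAGAtaaacggagc
DYRK1A, chr21:37517262-37517288, plus strand: gaaacaagtgGACAAGAcaagtggagc

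The library totals ranged from 19260124 to 25615415 counts on genes. Values are given as CPM, that is, counts per 1000000 counts on the tested genes of a library, with that total scaled by TMM factors. A principal component analysis of log2 CPM split the libraries along its leading component (39.8% of the variance), where the third control and the second knock-down library (siCtrl replicate 3, siFAM53C replicate 2) were far from the other controls, with siFAM53C replicate 1 in between. For this reason each difference is also given inside each side of this split, where siFAM53C replicate 1 was set against the mean of siCtrl replicates 1 and 2, and siFAM53C replicate 2 against siCtrl replicate 3 alone. Of the epithelial markers, the keratins KRT8 (236 to 328 CPM) and KRT18 (148 to 182 CPM) were present in all 5 libraries, and EPCAM (at most 0.170 CPM) and CDH1 (at most 0.157 CPM) were at or near 0. The mesenchymal transcripts VIM (3226 to 4146 CPM), FN1 (4719 to 7123 CPM) and CDH2 (214 to 391 CPM) were abundant. Of the 8 pigment epithelium markers, the factors MITF (34.0 to 48.8 CPM) and OTX2 (13.5 to 17.1 CPM) were present, SERPINF1 (1.05 to 2.99 CPM), PMEL (0.552 to 1.23 CPM) and BEST1 (0.170 to 0.786 CPM) were low, RLBP1 and TYR had at most 1 and 2 counts, and RPE65 had 0 in each library. These are bulk libraries, in which fewer cells with a transcript cannot be told apart from less transcript per cell.

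Of the 9 genes, 2 were lower in siFAM53C than in siCtrl at an adjusted p under 0.05, FAM53C itself and DYRK2, and 0 were higher. Differences were tested by edgeR's quasi-likelihood test over all 15341 genes with Benjamini-Hochberg adjustment, and each is given as a log2 fold change, siFAM53C minus siCtrl. Over all tested genes, 3.47% were called lower and 0.489% higher by the same rule. At an unadjusted p under 0.05 the same 2 genes passed (17.1% of all tested genes did), and again 0 were higher. DESeq2's Wald test called 2 lower and 0 higher, where it called 6.98% of all its genes lower and 2.02% higher. A fit with a term for the library split also called 2 lower and 0 higher, with 10.7 and 6.76% of all genes. The split was drawn from these same values, so that fit is no independent support. The median log2 fold change was -0.025 over the 9 genes and 0.016 over all tested genes. FAM53C was chosen as the target of the siRNAs, so its lower level checks the labels.

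FAM53C (ENSG00000120709, chromosome 5, 138331935 to 138349729, plus strand) was reduced to 30.7% of control (95% interval 22.4 to 41.9%). It had 60.9, 59.7 and 57.6 CPM in siCtrl replicates 1, 2 and 3, and 14.2 and 22.3 CPM in siFAM53C replicates 1 and 2. The controls were tight, with a coefficient of variation of 2.81%, and both siFAM53C libraries were far below them. Its log2 fold change of -1.71 (SE 0.19, n = 3 and 2, edgeR adjusted p = 0.00363) was -2.08 on the side of siFAM53C replicate 1 and -1.37 on that of siFAM53C replicate 2. The siFAM53C replicates differed 1.57-fold from each other, so the depth of the knock-down was not the same in both. Opposite-strand genes overlap 9.98% of the FAM53C exon bases, among them 293 bases with CDC25C, a phosphatase of mitotic entry that had 301 to 420 counts per library; without stated strand-specific counting, reads from these bases cannot be assigned.

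FAM53B (ENSG00000189319, chromosome 10, 124619292 to 124744378, minus strand), which promotes the nuclear localization of beta-catenin in Wnt signalling, did not pass the test. Its CPM was 31.1, 24.2 and 25.1 in siCtrl, and 27.9 and 28.0 in siFAM53C. Both siFAM53C values lay inside the range of the controls. This gave a log2 fold change of 0.058 (SE 0.15, n = 3 and 2, edgeR adjusted p = 0.900), and its 95% interval ran from 81.6 to 133% of control.

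FAM53A (ENSG00000174137, chromosome 4, 1617915 to 1684313, minus strand) was the least abundant of the 9, with 33 to 75 counts per library. It had 1.91, 1.73 and 3.93 CPM in siCtrl, and 2.19 and 2.76 CPM in siFAM53C. siCtrl replicate 3 was the highest of the 5 libraries, and the groups overlapped. The log2 fold change of -0.025 (SE 0.44, n = 3 and 2, edgeR adjusted p = 0.987) had a 95% interval from 48.2 to 200.3% of control, the widest of the 9 genes. It was 0.26 and -0.50 inside the sides, and without siCtrl replicate 3 it was 0.45.

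**Figure D1:**
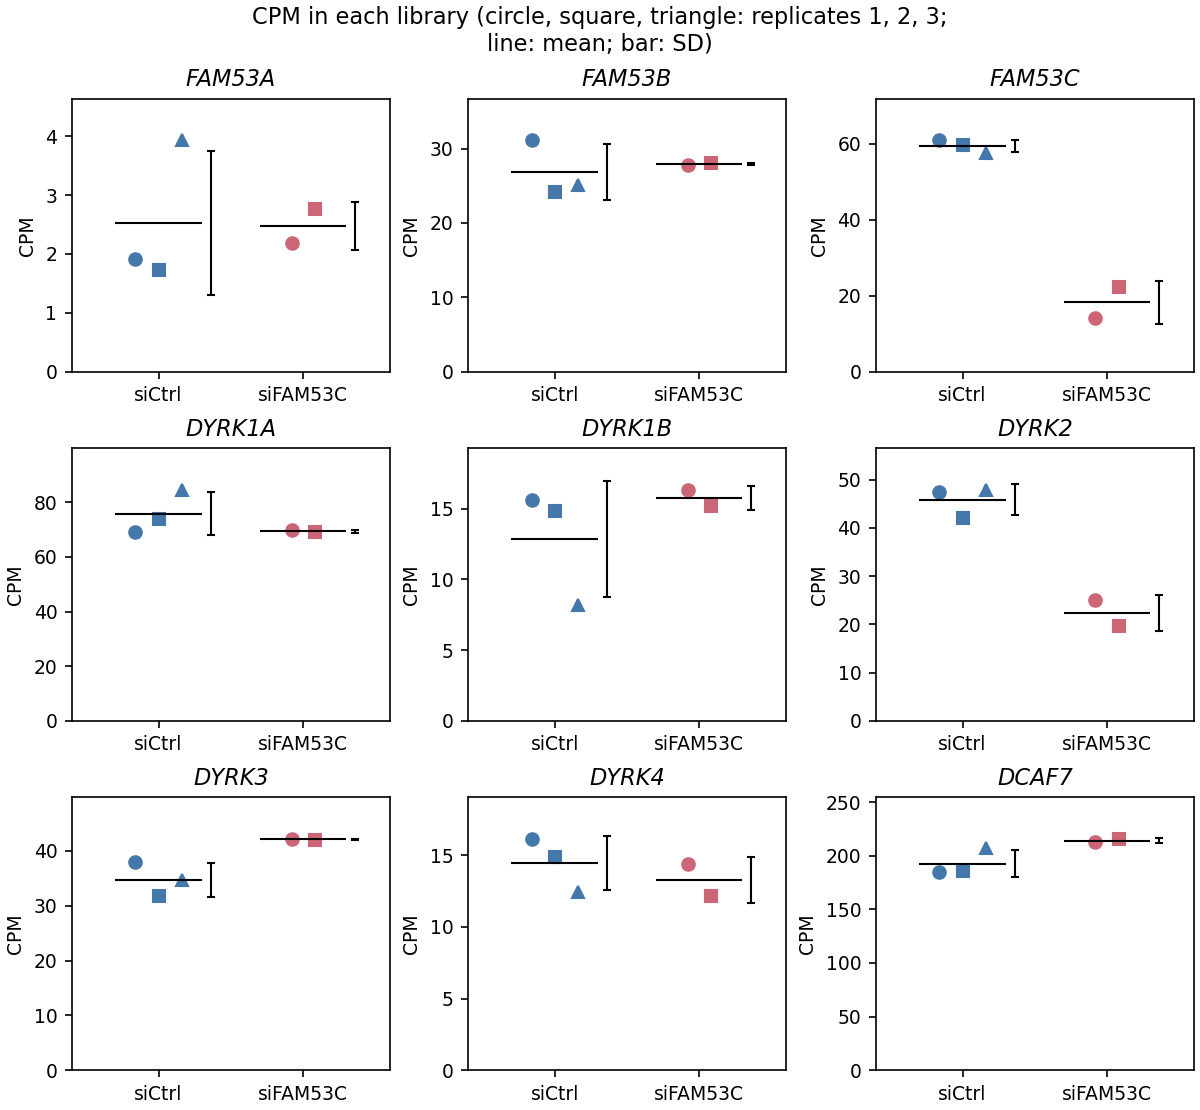
CPM of the 9 genes in each of the 5 libraries (1 panel per gene, vertical axis from 0 in CPM), with siCtrl in blue and siFAM53C in red; symbols mark replicates, horizontal lines the mean and bars the SD (n = 3 and 2). The siFAM53C points lie below all controls for FAM53C and DYRK2 and above all controls for DYRK3 and DCAF7, and the groups overlap in the other 5 panels.

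DYRK1A, the class I kinase that FAM53C binds, was tested for a change that might accompany the loss of its partner, and none passed the threshold. DYRK1A (ENSG00000157540, chromosome 21, 37365573 to 37526358, plus strand) had 69.0, 73.8 and 84.6 CPM in siCtrl, and 69.7 and 69.0 CPM in siFAM53C. The siFAM53C values were at the lower edge of the controls, from which siCtrl replicate 3 stood out on the high side. On the log2 scale the difference was -0.13 (SE 0.12, n = 3 and 2, edgeR adjusted p = 0.668), or -0.034 and -0.29 inside the sides. The 95% interval ran from 75.5 to 111% of control, so a loss of DYRK1A messenger RNA of the size seen for FAM53C was outside it. DYRK1A also holds the heptamer of the FAM53C 3′ UTR, in a UTR of 13827 bases; of the 162 tested genes with a UTR of at least 10000 bases, 56.2% hold it, and 12.1% of the 91 that do were called lower.

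DYRK1B (ENSG00000105204, chromosome 19, 39825350 to 39834201, minus strand), the closest relative of DYRK1A and a kinase of quiescent and muscle cells, also did not pass. Its CPM was 15.6, 14.9 and 8.17 in siCtrl, and 16.3 and 15.2 in siFAM53C. All libraries but siCtrl replicate 3 were within a narrow range, and that replicate was 1.91-fold below the highest control. Its log2 fold change was 0.29 (SE 0.28, n = 3 and 2, edgeR adjusted p = 0.676), with 0.10 on the side without siCtrl replicate 3 and 0.88 on the side with it. siFAM53C replicate 2, which lay with siCtrl replicate 3 on the first component, did not share its low DYRK1B value. Without siCtrl replicate 3 the log2 fold change was 0.056, and with a term for the split it was 0.43 (edgeR adjusted p = 0.125).

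DYRK2 was the member, apart from the target, whose level fell. DYRK2 (ENSG00000127334, chromosome 12, 67648338 to 67665406, plus strand) is a class II kinase known to phosphorylate p53 and to act as a scaffold of the EDVP ubiquitin ligase, which contains DDB1. It had 47.5, 42.1 and 47.9 CPM in siCtrl, and 24.9 and 19.7 CPM in siFAM53C. The controls differed 1.14-fold at most, and every siFAM53C library was below every control. This is a log2 fold change of -1.04 (SE 0.15, n = 3 and 2, edgeR adjusted p = 0.00959), a level 48.8% of control (95% interval 38.5 to 61.8%). It was -0.84 in siFAM53C replicate 1 and -1.28 in siFAM53C replicate 2, each against its own side. The larger difference was in siFAM53C replicate 2, the library with the weaker FAM53C knock-down, so the stronger reduction was in replicate 1 for FAM53C and in replicate 2 for DYRK2. Without siCtrl replicate 1 the value was -1.01 (edgeR adjusted p = 0.0657). That fit called 209 genes lower over all tested genes, against 533 with all 5 libraries. Without siFAM53C replicate 2 the value was -0.88. The call was not kept without siCtrl replicate 1, and the direction held in both fits. The 3′ UTR of DYRK2, 6693 bases long, has 0 copies of GACAAGA. An opposite-strand non-coding gene shares 594 of its exon bases and had at most 2 counts in any library.

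DYRK3 (ENSG00000143479, chromosome 1, 206635536 to 206684419, plus strand), the kinase that dissolves stress granules and other condensates, had values that did not overlap between the groups but did not pass the test. It had 37.9, 31.7 and 34.6 CPM in siCtrl, and 42.2 and 42.1 CPM in siFAM53C. Both siFAM53C libraries were above every control. The size of the difference was 0.28 on the log2 scale (SE 0.12, n = 3 and 2, edgeR adjusted p = 0.304), and 0.28 inside each side. The antisense gene DYRK3-AS1 shares 115 exon bases with DYRK3 and had at most 3 counts in any library.

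DYRK4 (ENSG00000010219, chromosome 12, 4562208 to 4615302, plus strand), a kinase best known from testis, had 16.1, 14.9 and 12.4 CPM in siCtrl, and 14.4 and 12.1 CPM in siFAM53C. The groups overlapped. The log2 fold change was -0.13 (SE 0.19, n = 3 and 2, edgeR adjusted p = 0.805), with a 95% interval from 67.8 to 124% of control.

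DCAF7 (ENSG00000136485, chromosome 17, 63550222 to 63594286, plus strand), the scaffold of the class I kinases, was the most abundant of the 9 genes and differed little. Its CPM was 185, 186 and 207 in siCtrl, and 213 and 216 in siFAM53C. Both siFAM53C libraries were above every control, the nearest of which was siCtrl replicate 3. The log2 fold change was 0.15 (SE 0.10, n = 3 and 2, edgeR adjusted p = 0.531), and the 95% interval from 93.9 to 131% of control put a level under the lower bound outside it. With DYRK3 this made 2 genes with all siFAM53C values above all controls and 2, FAM53C and DYRK2, with all below, 4 of 9. Over all tested genes such a separation was found in 35.5% (18.8% below and 16.7% above), so the number of members that separate is near the background.

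**Figure D2:**
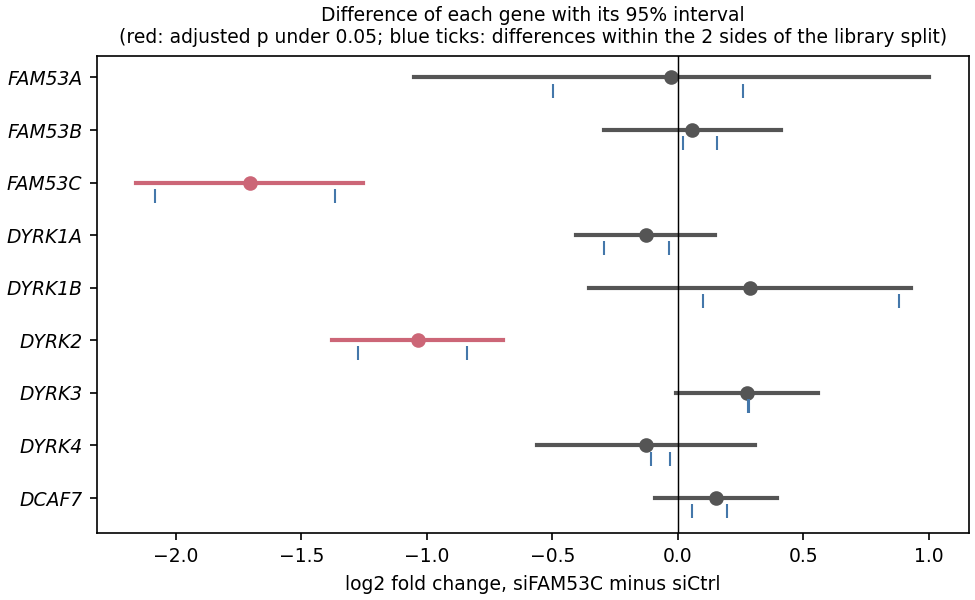
Log2 fold change of each gene, siFAM53C minus siCtrl (dots, edgeR), with its 95% interval (bars); red marks an adjusted p under 0.05, and short blue ticks mark the differences inside each side of the library split. The intervals of FAM53C and DYRK2 lie wholly below 0, and those of the other 7 genes include 0.

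The levels of the genes can be set against each other only per length, so CPM was divided by the kilobases of annotated exon of each gene (CPM per kb, GENCODE release 44). In siCtrl, DCAF7 had 15.1 ± 0.987 CPM per kb (SD, n = 3), followed by FAM53C with 8.42 ± 0.237 and DYRK2 with 4.84 ± 0.340. FAM53B (4.10 ± 0.575), DYRK1B (4.03 ± 1.28), DYRK3 (3.38 ± 0.301) and DYRK1A (2.83 ± 0.297) came next. DYRK4 (2.06 ± 0.269) and FAM53A (0.594 ± 0.288) were lowest. DCAF7 was 1.79-fold above FAM53C and FAM53C 1.74-fold above DYRK2, and in both cases the ranges of the controls did not overlap. From DYRK2 down to DYRK1A the control range of each gene overlapped with that of its neighbour in this order, so adjacent positions among these 5 are not separated. Genes farther apart can be on this scale: DYRK2 (4.45 to 5.06) and FAM53B (3.70 to 4.76) each lay above DYRK3 (3.08 to 3.68) and DYRK1A (2.58 to 3.16) in all controls. DYRK1A was separate from DYRK4 (1.38-fold), and DYRK4 from FAM53A (3.69-fold). On this scale DYRK1A, the kinase at the centre of the study, was thus among the less abundant DYRK messenger RNAs, with DYRK4 below it in each control library.

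The order depended in part on the length used. DYRK1A has 26763 annotated exon bases, the most of the 9 genes, and its longest protein-coding transcript has 17562. With the longest protein-coding transcript as the length, 5 of the 9 genes kept their place, with DCAF7, FAM53C and DYRK2 still first and FAM53A still last, and DYRK4 stood above DYRK1A and DYRK3. In siFAM53C the order was DCAF7, DYRK1B, FAM53B, DYRK3, DYRK1A, FAM53C, DYRK2, DYRK4 and FAM53A, as FAM53C went down to the sixth place and DYRK2 down to the seventh.

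**Figure D3:**
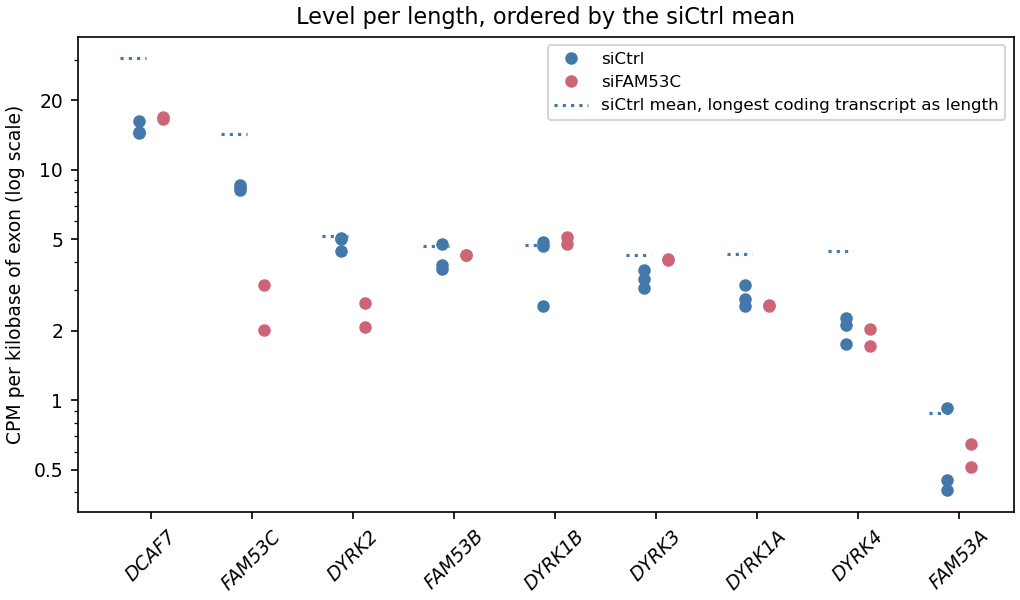
Level of each gene in CPM per kb of annotated exon (log axis), ordered by the siCtrl mean, with 1 dot per library (siCtrl blue, siFAM53C red); the dotted line is the siCtrl mean with the longest protein-coding transcript as the length. DCAF7 and FAM53C stand above the rest in siCtrl, and the dots of DYRK2, FAM53B, DYRK1B, DYRK3 and DYRK1A overlap from neighbour to neighbour.

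Within the FAM53 family, FAM53C made up most of the messenger RNA in control cells. The sum of the 3 genes was 13.9, 12.6 and 12.9 CPM per kb in siCtrl, of which FAM53C held 64.3 ± 2.69% (SD, n = 3), FAM53B 31.2 ± 2.78% and FAM53A 4.55 ± 2.26%. In siFAM53C the sum was 6.79 and 8.10 CPM per kb, and FAM53C held 29.6 and 39.0% of it. FAM53B then held 62.8 and 53.0%, while its own level stayed within the control range, so its share was larger through the smaller sum. Which of the pair was the more abundant in siFAM53C replicate 2 depended on the length used, since with the longest protein-coding transcript FAM53C held 48.0% and FAM53B 43.4%. The FAM53C to FAM53B ratio was 1.81, 2.29 and 2.12 in siCtrl, and 0.471 and 0.737 in siFAM53C.

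The DYRK kinases together summed to 18.4, 17.1 and 15.9 CPM per kb in siCtrl, and to 16.5 and 15.2 in siFAM53C, and the groups overlapped. Class I summed to 6.86 ± 0.992 CPM per kb in siCtrl (SD, n = 3) and 7.52 ± 0.280 in siFAM53C (SD, n = 2), again with overlap. Class II summed to 11.0, 9.64 and 10.2 CPM per kb in siCtrl, and to 8.77 and 7.89 in siFAM53C, below every control. Within class II, DYRK2 was the most abundant in each control, with 45.7, 46.1 and 49.7% of the sum. In siFAM53C it held 30.0 and 26.4%, and DYRK3 held 46.7 and 51.8%, against 31.9 to 33.5% in siCtrl. The ratio of DYRK2 to DYRK3 was 1.36, 1.44 and 1.5 in siCtrl, and 0.643 and 0.510 in siFAM53C, so the more abundant gene of this pair in control cells was the less abundant after knock-down in both libraries.

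**Figure D4:**
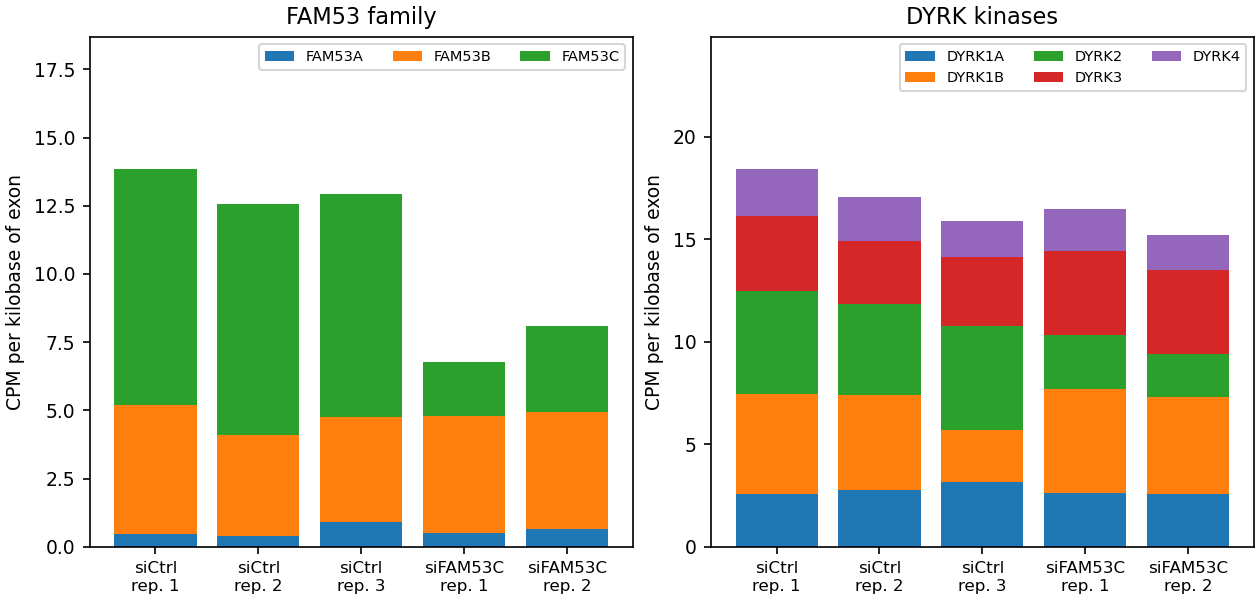
Stacked level of the FAM53 genes (left) and the DYRK kinases (right) in each library, in CPM per kb of annotated exon, from 0. The FAM53 sum is smaller in both siFAM53C libraries through the FAM53C segment, and the DYRK sum overlaps between the groups although its DYRK2 segment is smaller in siFAM53C.

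As FAM53C binds DYRK1A, and DCAF7 does so too, the balance of these messenger RNAs was also computed. The FAM53C to DYRK1A ratio, each in CPM per kb, was 3.35, 3.07 and 2.59 in siCtrl, and 0.772 and 1.23 in siFAM53C. FAM53C messenger RNA exceeded that of DYRK1A in each control and in siFAM53C replicate 2, by a smaller factor, and was below it in siFAM53C replicate 1. The log2 ratio differed by -1.62 between the groups, that is, 3.07-fold. The FAM53C to DCAF7 ratio was 0.596, 0.580 and 0.503 in siCtrl, and 0.121 and 0.187 in siFAM53C, a difference of -1.89 in the log2 ratio. The DYRK1A to DCAF7 ratio was 0.178, 0.189 and 0.194 in siCtrl, and 0.156 and 0.153 in siFAM53C, and it too was below every control (-0.28). Each of these ratios had a two-sided exact permutation p of 0.2, which is the smallest that the 10 splits of 3 against 2 libraries can give, so none could reach 0.05 by this test. The ratios are of messenger RNA and say nothing of protein.

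The partners and substrates of these proteins were examined as 8 lists with 83 tested genes. By edgeR's quasi-likelihood test 4 were lower (4.82%, against 3.47% of all tested genes) and 0 higher (0.489% of all). Before adjustment (p under 0.05) 15 were lower and 8 higher, where 17.1% of all tested genes passed in either direction. DESeq2 called 6 lower and 3 higher, where it called 6.98% of all its genes lower and 2.02% higher. These shares are the background for the counts of each list below, and the lists are small. Calls over all tested genes also moved with 1 library left out. Without siCtrl replicates 1, 2 and 3, 209, 180 and 886 genes were called lower, against 533 with all 5 libraries. They also fell with either siFAM53C library left out. The median log2 fold change of the 83 genes was -0.0079. The 4 lower genes were GLCCI1, LIN54, HIPK2 and CUL4A, each from a different list.

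Of the 7 other proteins known from DYRK1A interaction studies, 1 was lower and none higher (unadjusted p under 0.05: 2 and 1, DESeq2: 1 and 0), with a list median of -0.025. GLCCI1, a paralog of FAM117A and FAM117B, had 12.9, 13.6 and 11.4 CPM in siCtrl, and 2.57 and 4.67 CPM in siFAM53C (log2 fold change -1.81, edgeR adjusted p = 0.0170). The separation between the groups was wide, but the call was lost without siCtrl replicate 1, siCtrl replicate 2 or siFAM53C replicate 1 (edgeR adjusted p up to 0.0997). RNF169, a reader of ubiquitin at DNA breaks that DYRK1A and DCAF7 bind, differed by -0.025.

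Of 21 tested substrates of DYRK kinases, 0 were lower and 0 higher by edgeR's quasi-likelihood test. Before adjustment 0 were lower and 3 higher (p under 0.05), and DESeq2 called 0 lower and 2 higher; the list median was 0.061. CCND1, which encodes Cyclin D1, had 1648, 1675 and 1339 CPM in siCtrl, and 1877 and 1364 CPM in siFAM53C. siFAM53C replicate 1 was above every control and replicate 2 inside their range (log2 fold change 0.061, edgeR adjusted p = 0.908). APP, the amyloid precursor, differed by 0.029.

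The DREAM complex represses cell cycle genes in quiescent cells once DYRK1A has phosphorylated its subunit LIN52. Of 10 tested DREAM and MuvB subunits, 1 was lower and none higher (unadjusted p under 0.05: 3 and 0, DESeq2: 2 and 0), and the list median was -0.23. LIN54, the subunit that binds DNA, had 34.9, 32.3 and 36.6 CPM in siCtrl, and 18.03 and 20.7 CPM in siFAM53C (log2 fold change -0.84, edgeR adjusted p = 0.0175). The difference was similar on both sides of the split, -0.89 and -0.82. The call was lost without siCtrl replicate 1 or 2, where calls over all tested genes also fell. It held without siCtrl replicate 3, where they rose.

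Of 7 tested kinases related to the DYRK family (HIPK, CLK and PRPF4B), 1 was lower and none higher (unadjusted p under 0.05: 1 and 1, DESeq2: 1 and 0), with a list median of 0.074. HIPK2, a nuclear kinase of the DNA damage response, was the lower gene, with 285, 357 and 281 CPM in siCtrl, and 83.7 and 69.9 CPM in siFAM53C. Its log2 fold change was -2.0 (SE 0.16, n = 3 and 2, edgeR adjusted p = 0.000963), farther from 0 than that of FAM53C, a difference that was not tested, and it was called in each of the 5 fits with a library left out. HIPK1 (0.25) and HIPK3 (0.36) were above 0 and did not pass.

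Of 17 tested genes of the CUL4-DDB1 ubiquitin ligase, the family that gives DCAF7 its name, 1 was lower and none higher (unadjusted p under 0.05: 1 and 2, DESeq2: 1 and 0), with a list median of 0.032. CUL4A, a cullin scaffold of this ligase, had 158, 160 and 178 CPM in siCtrl, and 94.2 and 93.7 CPM in siFAM53C (log2 fold change -0.81, edgeR adjusted p = 0.00637). The call was lost when either siFAM53C library was left out (edgeR adjusted p up to 0.0790). Its paralog CUL4B differed by -0.079, and the adaptor DDB1 by 0.14; neither passed.

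FAM53C binds 14-3-3 proteins, adaptors of phosphorylated proteins. Of the 6 tested, 0 were lower and 0 higher by edgeR's quasi-likelihood test (1 and 0 before adjustment, p under 0.05; DESeq2, 0 and 0), with a median of -0.13. YWHAQ (-0.33) and YWHAZ (-0.17), the most abundant, were among the 4 below 0, and YWHAE (1.66) and YWHAG (0.12) were the 2 above. YWHAE varied widely, with 23.0, 47.9 and 18.9 CPM in siCtrl, and 148 and 40.7 CPM in siFAM53C, and its groups overlapped. The 11 subunits of PP2A, a phosphatase that opposes such marks, also gave 0 lower and 0 higher (4 and 1 before adjustment, p under 0.05; DESeq2, 1 and 1), with a median of -0.13. The catalytic subunit PPP2CA had 191, 252 and 216 CPM in siCtrl and 139 and 157 CPM in siFAM53C, below every control (log2 fold change -0.57, edgeR adjusted p = 0.0763). PPP2R1A, a scaffold subunit, differed by -0.084. PPP2R1B went the other way, with 92.6, 103 and 104 CPM in siCtrl and 132 and 131 CPM in siFAM53C, above every control (log2 fold change 0.40, edgeR adjusted p = 0.0819).

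Targets of Wnt signalling, in which FAM53B acts, were mostly too low to test. Of 9 listed genes 4 were tested, and 0 were lower and 0 higher by edgeR's quasi-likelihood test (3 and 0 before adjustment, p under 0.05; DESeq2, 0 and 0). All 4 had log2 fold changes below 0, with a median of -1.04, and 48.2% of all tested genes were below 0. Farthest from 0 were ZNRF3 (-3.51, at most 0.785 CPM in any library) and AXIN2 (-1.32, at most 3.25 CPM), both at low levels. LEF1, a transcription factor of the pathway, had 17.5, 15.3 and 12.9 CPM in siCtrl, and 11.4 and 8.23 CPM in siFAM53C (log2 fold change -0.64, edgeR adjusted p = 0.199). TCF7 differed by -0.75, with siCtrl replicate 3 (11.9 CPM) far below the other controls (31.8 and 34.8 CPM) and near the lower siFAM53C library (10.8 CPM).

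The heptamer GACAAGA was present in the 3′ UTR of all 4 lower genes of these lists. Of the 83 tested list genes, 12 hold it and 71 do not; the 4 lower genes are among the 12, and 0 of the 71 were called by edgeR's quasi-likelihood test (11 lower and 8 higher before adjustment, p under 0.05, and 2 and 3 by DESeq2). The median log2 fold change was -0.27 with the heptamer and 0.025 without it. Over all tested genes with an annotated UTR, 15.1% of the 1400 that hold it were lower by this test, and 2.92% of the 10675 that do not. The heptamer was picked on these same libraries, so these counts are a description and no independent support. Its sites in the 4 genes, with the heptamer in capitals, on the RNA strand, are shown because each of the lower list genes holds at least 1.
GLCCI1, chr7:8087459-8087485, plus strand: gaaatttaaaGACAAGAatgtctagag
LIN54, chr4:82926591-82926617, minus strand: ttgattttatGACAAGAaaaaaccatg
HIPK2, chr7:139565669-139565695, minus strand: gtggaagaaaGACAAGActtagaggaa
HIPK2, chr7:139562925-139562951, minus strand: aaatgaaataGACAAGAaagtcatact
CUL4A, chr13:113263833-113263859, plus strand: tttgagattgGACAAGAagatgttact
DYRK2 differs from these 4 genes in that it fell without holding the heptamer. DYRK1A holds it and did not pass the test. The same was true of the rest of the 12 list genes that hold it, among them HIPK1, CUL4B, PPP2R1A and YWHAZ. What part the siRNA sequences had in any of these values was not tested, and the siRNA pool and the loss of FAM53C cannot be told apart in this design.

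The genes whose values were most like those of FAM53C and DYRK2 across the 5 libraries were listed by the root-mean-square difference of centred log2 CPM over 9300 genes with a mean of at least 10 CPM. For FAM53C these were GDF6 (0.087 log2 units), CENPQ (0.13), TSNAX (0.14), PIK3CA (0.14) and LSM11 (0.14). For DYRK2 they were FGD4 (0.038), LIN7C (0.085), BLZF1 (0.092), OTUD5 (0.098) and SGPL1 (0.10). Among the members, FAM53C was closest to DYRK2 (0.47) and farthest from DYRK1B (1.09), while FAM53B and DYRK3 (0.12), DYRK3 and DCAF7 (0.12) and DYRK1A and DCAF7 (0.14) were the closest pairs. These distances are over 5 libraries that share the group difference and the split, and are given as a description.

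**Figure D5:**
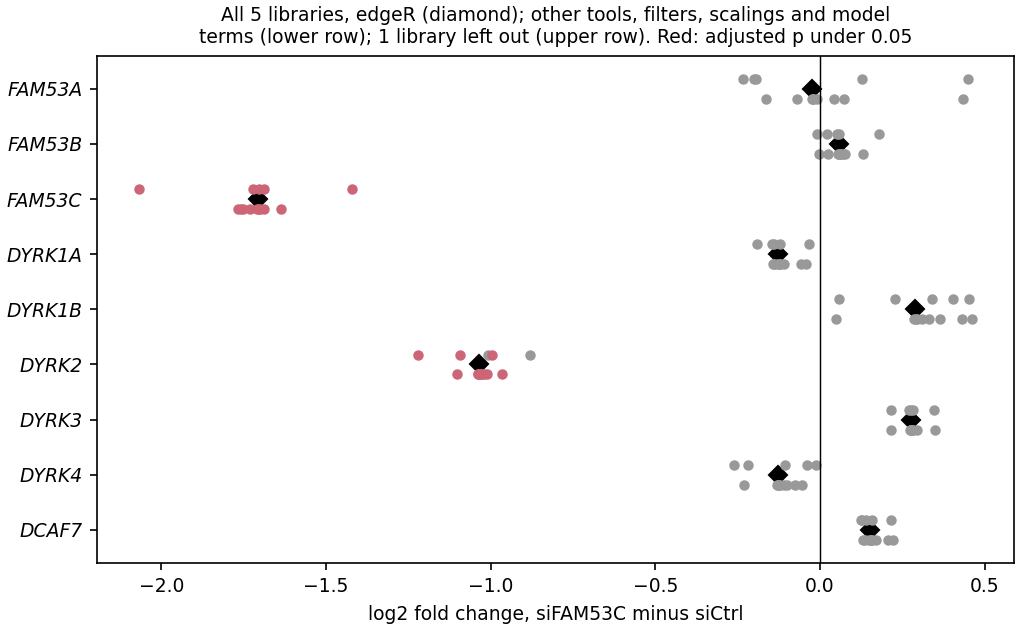
Log2 fold change of each gene, siFAM53C minus siCtrl, with all 5 libraries in edgeR (diamonds), under other tools, filters, scalings and model terms (lower dots) and with 1 library left out (upper dots); red dots have an adjusted p under 0.05. FAM53C is red throughout, DYRK2 in all but 2 of its 14 alternatives, and no dot of the other 7 genes is red.

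Reads that fit more than 1 gene could blur values within a family. No pair of FAM53 genes and no pair of DYRK genes shared an identical stretch of 31 bases in their annotated transcripts, on either strand. Such stretches occurred in 4 of the 36 pairs of members, all of them across families or with DCAF7, with 16 in FAM53C and DYRK1A and at most 10 in the others.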

How the data were processed

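RNA from 5 RPE-1 libraries was sequenced as paired reads. Trimming by the authors was with cutadapt 2.10, alignment to UCSC hg38 with HISAT2 (reverse strandedness) and counting with featureCounts; the annotation release and the strand setting of the counting are not given in the sources used here. The deposited values are raw counts per gene, not normalized or filtered.

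From these, library totals were scaled by TMM, genes were filtered by filterByExpr (minimum count 10, minimum total 15), and groups taken from the sample labels were compared by the quasi-likelihood test of edgeR 4.0.16 (robust, R 4.3.3) with Benjamini-Hochberg adjusted p-values and a cut-off of 0.05. Log2 CPM used a prior count of 2. DESeq2 1.42.0, limma-voom (limma 3.58.1), other scalings and filters, a replicate block, a term for the library split and each library left out were alternatives. The scripts were tested on simulated counts. Positions, lengths and UTRs are from GENCODE release 44 on GRCh38, which may differ from the annotation the authors used; 56105 of the 64252 identifiers had a symbol there.

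The members and lists were chosen with earlier results of these data known, and the heptamer was found in these data. Named genes were the 9 members; in each list up to 3 genes past the threshold by lowest adjusted p, or else the 2 most abundant; and the 5 genes most like FAM53C and DYRK2. RNF169, HIPK1, HIPK3, CUL4B, DDB1, YWHAE, YWHAG, PPP2R1B, AXIN2 and ZNRF3 were added after their values were seen. Library totals of 19260124 to 25615415 counts limit precision most for FAM53A. Each pair of replicates differed by more than sampling noise (chi-square per gene 9.89 to 47.5), so none was taken for a library deposited in duplicate, which does not show that they came from separate cultures.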

Additional observations from a re-analysis of the deposited data

How the results depend on the processing

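FAM53C was called lower in all 14 alternative fits (-2.07 to -1.42, adjusted p up to 0.0318), and the signs of DYRK1A, DYRK1B, DYRK3, DYRK4 and DCAF7 did not change in any of them; none of these 5 was called. With 1 library left out, from 1 to 2 members were called lower and 0 higher. FAM53A changed sign with limma-voom (0.073), library totals only (0.041), a replicate block by titles (0.43), without siCtrl replicate 3 (0.45) and without siFAM53C replicate 1 (0.13). With 1 library left out it ranged from -0.23 to 0.45, and FAM53B from -0.011 to 0.18. FAM53B was also below 0 with the block by library names (-0.0046). DYRK2 ranged from -1.22 to -0.88. Of the 9 places in the siCtrl order, 5 held with the longest protein-coding transcript as length, and from 6 to 9 with a control left out. The count of list genes called was 4, where 533 of all 15341 tested genes were lower and 75 higher. DESeq2 gave 9, where it called 890 lower and 257 higher of 12749. The fit that includes the library split gave 24, where 1636 were lower and 1037 higher of 15341. Leaving out 1 control, a setting chosen after seeing the data, gave from 2 to 10. From 180 to 886 of all tested genes were then lower and from 6 to 414 higher. In these fits the list count rose and fell with the count over all tested genes. The causes were not tested.

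The titles number the siFAM53C libraries 1 and 2 and the library names 1 and 3. The correlation of deviations was 0.17 and -0.28 for pairs by title, and 0.17 and 0.37 by library name. Deviations from the mean of 2 siFAM53C libraries mirror each other, so the 2 values of a pairing are not independent. They do not show that the numbers pair the samples. With the replicate block FAM53C was -1.76 by titles and -1.73 by names, and DYRK2 -1.01 and -1.10, both called. Over all genes the block gave 856 lower and 355 higher genes by titles, and 1350 and 642 by names, against 533 and 75. Library totals only gave 415 lower and 121 higher, with a median of 0.087.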
